A study of Homo sapiens with 18 samples.

Results

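MP41 is a human uveal melanoma cell line, and the comparison described here sets its transcripts after A366 against its transcripts after UNC0642, 2 inhibitors of the same enzyme, the histone methyltransferase G9a (EHMT2). Cells were kept for 48 h with either compound at 1 μM, or with DMSO, in RPMI medium with serum. There were 3 libraries per group, so 6 of the 18 libraries of the series make up the comparison, and 3 MP41 DMSO libraries were fitted with them. The other 9 libraries come from the uveal melanoma line Mel92.1 under the same treatments and are used only where the lines are compared. By the study's methods MP41 was grown with a higher share of serum than Mel92.1, so line and serum level cannot be told apart. Each group is 1 cell line, and neither the labels nor the files state how the replicate cultures were set up beyond calling them biological replicates, so p-values measure the spread between these libraries.

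Of the A366 libraries, 4 went against their labels. Replicates 2 and 3 of those labelled Mel92.1 A366 held the transcripts of MP41, and those labelled MP41 A366 replicates 2 and 3 held the transcripts of Mel92.1. The check used 24 genes that MP41 DMSO libraries express at 20 CPM (counts scaled by library size) or more and Mel92.1 DMSO libraries at 0.05 CPM or less, and 16 genes with the reverse pattern. In the library labelled Mel92.1 A366 replicate 2, the MP41 genes stood at 110% of their MP41 DMSO level and the Mel92.1 genes at 0.0392% of their Mel92.1 DMSO level. In the library labelled Mel92.1 A366 replicate 3 the same values were 108% and 0.00538%. Both were therefore placed with MP41 A366, as the study's own data set places them. Values without them are given where they bear on a call. Leaving both out leaves 1 A366 library in MP41, which is assumed to vary like the other groups, so such values are descriptions and no support. Fewer genes were called over all genes tested without these libraries, so a smaller count in a list need not be particular to that list. Where 3 values are listed for A366, the order is the library labelled MP41 A366 replicate 1, then those labelled Mel92.1 A366 replicates 2 and 3. Values for DMSO and UNC0642 are in the order of replicates 1 to 3.

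G9a and its partner GLP (EHMT1) place mono- and dimethylation on lysine 9 of histone H3, a mark of silent chromatin, and both compounds are used to lower that mark. The first group of genes described here belongs to another pathway. When amino acids run short, when unfolded protein gathers in the endoplasmic reticulum or when haem is lacking, kinases phosphorylate the initiation factor eIF2, general translation slows and the transcription factor ATF4 is made. ATF4 binds short DNA elements that join a C/EBP site to an ATF site and switches on genes for amino acid synthesis, amino acid import, transfer RNA charging and redox balance, together with the regulators DDIT3, ATF3 and TRIB3.

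Of the listed ATF4 target genes that passed the expression filter, 3 carried a match to the element before their RefSeq start and were among those with the widest gap between the compounds. Their promoters are shown for that reason, as the 250 bases before the start on the strand of the gene. The motif searched was TGATGNAA on both strands, and its match is in capitals. Sequences and positions are from RefSeq on GRCh38.p14.
CHAC1 (chr15:40953221-40953470, + strand): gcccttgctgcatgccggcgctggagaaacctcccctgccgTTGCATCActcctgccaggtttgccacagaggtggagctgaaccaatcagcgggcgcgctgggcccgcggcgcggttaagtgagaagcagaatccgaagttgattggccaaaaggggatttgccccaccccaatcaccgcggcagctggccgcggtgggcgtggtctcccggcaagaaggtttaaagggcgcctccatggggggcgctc
ATF3 (chr1:212565157-212565406, + strand): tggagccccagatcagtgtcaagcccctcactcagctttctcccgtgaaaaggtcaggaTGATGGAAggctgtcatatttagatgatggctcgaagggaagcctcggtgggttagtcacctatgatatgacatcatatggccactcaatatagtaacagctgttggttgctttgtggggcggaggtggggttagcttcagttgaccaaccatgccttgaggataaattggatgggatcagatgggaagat
ASNS (chr7:97872409-97872658, - strand): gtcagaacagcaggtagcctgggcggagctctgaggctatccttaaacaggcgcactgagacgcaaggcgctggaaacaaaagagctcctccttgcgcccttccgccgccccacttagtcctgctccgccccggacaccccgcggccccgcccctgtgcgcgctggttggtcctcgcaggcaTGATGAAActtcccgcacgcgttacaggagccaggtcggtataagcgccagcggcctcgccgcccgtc

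The match begins 209 bases before the RefSeq start in CHAC1, where it lies on the opposite strand, 191 bases before it in ATF3 and 68 bases before it in ASNS. In windows of 300 bases around the start (250 before and 50 after), 1003 of 27305 promoters in the RefSeq table held the motif (3.67%). Of the 26 ATF4 targets that passed the filter, from 30 listed, 22 had a promoter in that table, and 5 held the motif (22.7%). The remaining matches lay after the start, in SLC3A2 and SLC7A1. Among aminoacyl-tRNA synthetase genes 6 of 16 promoters held it (37.5%), and among genes of endoplasmic reticulum chaperones 1 of 19 (5.26%). A match is a description of the letters and was not tested as a binding site.

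Between the compounds, 6450 of 14956 genes tested passed an adjusted p of 0.05 (43.1%) in edgeR's quasi-likelihood test, 3160 of them higher with A366 (21.1%) and 3290 lower (22%). Most of these differences were small. Only 488 of the genes that passed (3.26% of those tested) differed by at least 2-fold, 257 higher and 231 lower, and 5% of all genes fell below a log2 difference of −0.79 and 5% above 0.80. The median over all genes was 0.0063. Counts in the gene lists below stand beside the shares of all genes, 21.1% higher and 22% lower. For 7672 genes (51.3%) the A366 libraries did not overlap the UNC0642 libraries. Against the DMSO libraries, which the comparisons share, A366 moved 6884 genes (46%), 3362 higher (22.5%) and 3522 lower (23.5%). UNC0642 moved 36 (0.241%), 17 higher (0.114%) and 19 lower (0.127%). In these bulk libraries, less RNA per cell and fewer cells that carry it cannot be told apart.

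The A366 libraries stood apart in composition as well. Ribosomal RNA genes took between 5.93% and 11% of their counts, against 3.55% to 5.14% with UNC0642 and 3.31% to 5.1% with DMSO, and between 17870 and 18247 genes had a count, against 16981 to 17240 with UNC0642. Total counts were between 46220015 and 54800817 with A366 and between 37531522 and 44082889 with UNC0642. Across 14450 genes, the log2 difference between the compounds rose with the GC content of the transcript (Spearman's rho 0.42) and fell with its length (rho −0.45). The same rho values were 0.12 and −0.10 for UNC0642 against DMSO in MP41. The shortest 10% of genes had a median log2 difference of 0.34, with 579 higher and 45 lower of 1445, and the longest 10% a median of −0.37, with 73 higher and 786 lower. By GC content the medians ran from −0.28 in the lowest 10% to 0.31 in the highest 10%. What part composition and transcript features had in any difference was not tested. Several groups are therefore also given from a fit with an offset, called the offset below, built on GC content and transcript length. Over all genes tested, that fit called 2620 of 14956 higher and 2570 lower with A366, fewer than without the offset. In it the rho of the difference between the compounds was 0.012 with length and −0.15 with GC content. The trend with length was thus almost gone. The trend with GC content was weaker but had changed sign, so values with the offset are not free of it.

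**Figure D1:**
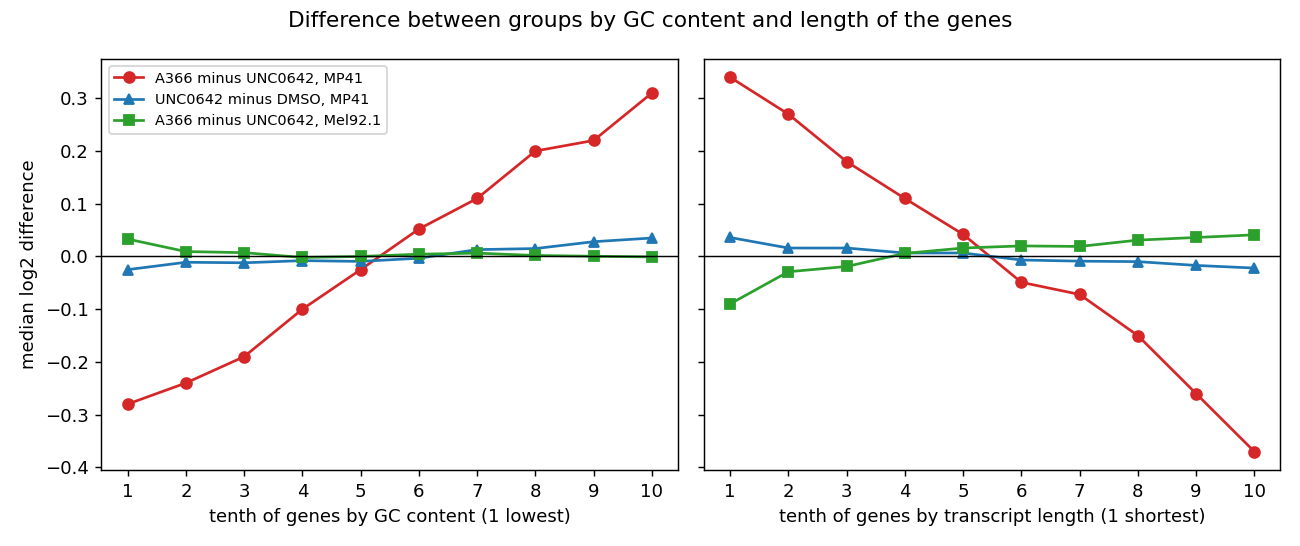
Median log2 difference, A366 minus UNC0642, in 10 equal bins of the tested genes by GC content (percent of the longest transcript) and by transcript length (bases), with Mel92.1 drawn for comparison. In MP41 the medians climb from −0.28 to 0.31 with GC content and drop from 0.34 to −0.37 with length.

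The ATF4 targets were higher with A366. Of the 26 tested, 23 rose relative to UNC0642 and 0 fell, with a median log2 difference of 0.77. The fit with the offset left 21 higher and 0 lower (median 0.62), and without the libraries labelled Mel92.1 there were 21 higher and 0 lower. In 23 of the 26 the A366 libraries did not overlap the UNC0642 libraries, against 51.3% of all genes tested. Against the shared DMSO libraries the list had a median of 0.65 with A366, 21 genes higher and 1 lower, and of −0.19 with UNC0642, 0 higher and 2 lower. The genes below the expression filter were STC2, FGF21, ALDH1L2 and SLC7A3, in which a change was not detectable at this depth.

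CHAC1, a glutathione-degrading cyclotransferase on chromosome 15 (40952962 to 40956519, + strand, hg38), moved most in this list. Its levels with UNC0642 were 7.46, 8.14 and 8.07 CPM, and with A366 65.6, 59.2 and 72.2 CPM. The DMSO libraries lay between the compounds at 18, 17.8 and 15.6 CPM, so every A366 library was above and every UNC0642 library below every DMSO library. The group means of 65.7 ± 6.52 and 7.89 ± 0.375 CPM (SD, n = 3 each) made an 8.32-fold difference, a log2 difference of 3.06 (SE 0.10, 95% interval 2.84 to 3.27, edgeR adjusted p = 8.25e-09). Both inhibitors differed from DMSO in CHAC1, UNC0642 by −1.12 (adjusted p = 0.000503) and A366 by 1.94 (adjusted p = 4.66e-07) on the log2 scale. With the offset the difference between the compounds was 2.63.

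The transcription factors of the pathway followed. ATF3, a stress-induced factor of the ATF/CREB family on chromosome 1 (212565334 to 212620777, + strand), was at 5.9, 6.44 and 6.86 CPM with UNC0642 and at 29, 26.8 and 27.4 CPM with A366. Its log2 difference was 2.12 (SE 0.10, adjusted p = 1.99e-07), and its groups did not overlap. DDIT3, which encodes the pro-apoptotic factor CHOP, was at 17.6, 17.1 and 16.2 CPM with UNC0642 and at 59.8, 51.3 and 60.3 CPM with A366, a log2 difference of 1.75 (SE 0.10, adjusted p = 9.68e-07). NUPR1, a small stress-induced nuclear protein, rose from 25, 29 and 25.1 CPM to 107, 85.6 and 124 CPM, a log2 difference of 2.00 (adjusted p = 1.91e-06). TRIB3, a pseudokinase that dampens ATF4 output, had a log2 difference of 1.33 (adjusted p = 4.41e-06). The A366 values of DDIT3, NUPR1 and TRIB3 exceeded all DMSO values. CEBPB, a partner of ATF4, was higher by 0.98, and the phosphatase subunit PPP1R15A, which restores translation, by 1.01. The transcript of ATF4 itself was at 229, 245 and 230 CPM with UNC0642 and 390, 360 and 403 CPM with A366, a log2 difference of 0.71 (SE 0.061, adjusted p = 2.29e-05).

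The enzymes and transporters that ATF4 controls were higher too. ASNS, asparagine synthetase, was at 47, 41.2 and 43.3 CPM with UNC0642, 61.3, 67.8 and 62.1 CPM with DMSO and 144, 143 and 151 CPM with A366. Here again the DMSO libraries lay between the compounds without overlap, and the difference between the compounds was 1.73 (SE 0.073, adjusted p = 1.09e-07). Against DMSO it was −0.54 with UNC0642 (adjusted p = 0.0113) and 1.19 with A366 (adjusted p = 2.39e-06). SLC7A11, the cystine importer, was at 32.1, 32.9 and 34.7 CPM with UNC0642 and at 65.6, 84.3 and 58.6 CPM with A366, a log2 difference of 1.07 (adjusted p = 9e-05). The serine synthesis enzymes PHGDH (0.88) and PSAT1 (0.64) and the folate-cycle enzymes SHMT2 (0.65) and MTHFD2 (0.65) rose by less. The secreted factor GDF15 and the mTORC1 inhibitor DDIT4 passed with 0.56 and 0.45, but with the offset these values were 0.02 and 0.073 and neither passed.

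The ATF4 targets that did not pass without the offset were VLDLR, SLC7A1 and XPOT. VLDLR, a lipoprotein receptor, differed by −0.13 (95% interval −0.30 to 0.043, adjusted p = 0.207). With the offset VLDLR changed sign and passed at 0.29 (edgeR adjusted p = 0.00273). SLC7A1, a cationic amino acid transporter, differed by 0.046 (95% interval −0.20 to 0.29). XPOT, the exporter of transfer RNA, differed by 0.19 (95% interval −0.013 to 0.40). With the offset XPOT passed at 0.56 (edgeR adjusted p = 1.13e-05). None of the 3 intervals, all from the fit without the offset, reached the median of the list in that fit.

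**Figure D2:**
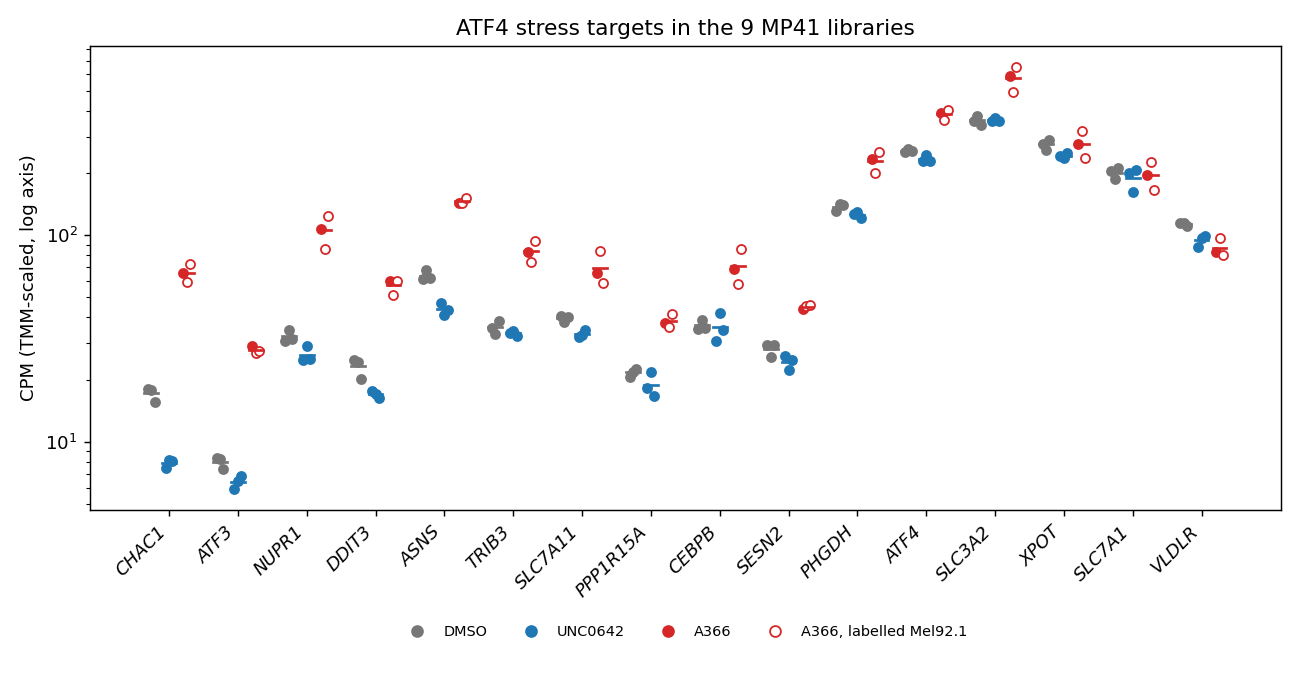
Level (CPM, log axis) of ATF4 target genes in each of the 9 MP41 libraries, with 1 point per library and a bar at each group mean, and with open markers for the A366 libraries labelled Mel92.1. In CHAC1 and ASNS the UNC0642 libraries lie below, and the A366 libraries above, all DMSO libraries.

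Genes for transfer RNA charging and for protein folding in the endoplasmic reticulum, which partly share the inputs of ATF4, were mixed. Of 20 cytosolic aminoacyl-tRNA synthetases, 8 rose and 4 fell with A366 relative to UNC0642 (median 0.11). WARS, which charges tryptophan, rose from 278 ± 20.3 to 499 ± 7.65 CPM (SD, n = 3 each), a log2 difference of 0.84 (SE 0.064, adjusted p = 8.05e-06). It was below DMSO with UNC0642 (−0.41, adjusted p = 0.0235). AARS for alanine rose by 0.73 and CARS for cysteine by 0.65. DARS for aspartate fell by 0.36 on the log2 scale, from 146, 160 and 152 CPM to 120, 121 and 117 CPM (adjusted p = 0.000922). EPRS for glutamate and proline passed at −0.28, but stood at −0.027 with the offset.

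Of 20 chaperone and folding genes of the endoplasmic reticulum, 13 rose and 2 fell (median 0.32). The offset left 13 higher and 0 lower (median 0.20). HERPUD1, which helps to clear misfolded proteins, was at 15.1, 15 and 16.4 CPM with UNC0642 and at 38.9, 36.6 and 37.1 CPM with A366, a log2 difference of 1.28 (SE 0.077, adjusted p = 1.81e-06). XBP1, a transcription factor of the unfolded protein response, differed by 1.07 (adjusted p = 4.22e-05). HSPA5, the chaperone BiP, was at 780, 845 and 758 CPM with UNC0642, and at 1080, 1090 and 1060 CPM with A366. Its A366 and DMSO levels differed by 0.08 (adjusted p = 0.239), so the gap of 0.44 between the compounds was mostly a lower level with UNC0642 (−0.36 against DMSO, adjusted p = 0.0188). CANX and SEL1L, the members that fell, passed at −0.29 and −0.49 and were at −0.05 and −0.01 with the offset.

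Cell death genes of the BCL2 family were mostly higher with A366, with 10 of 16 up and 1 down (median 0.52). With the offset 6 were up and 1 down (median 0.19). BBC3, HRK and PMAIP1, which encode the pro-death proteins PUMA, HRK and NOXA, rose by 0.94, 0.88 and 0.85 on the log2 scale. PMAIP1 was at 8.46, 8.78 and 7.89 CPM with UNC0642 and at 14.3, 15 and 16 CPM with A366 (adjusted p = 0.000145). BBC3 lost its call with the offset (0.42, adjusted p = 0.0588), and HRK without the libraries labelled Mel92.1 (0.72, adjusted p = 0.0538). The pore-former BAX rose by 0.65 and the survival gene BCL2 by 0.55. MCL1, another survival gene, differed by −0.088 (95% interval −0.24 to 0.062, adjusted p = 0.326).

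Among the largest rises, named by a fixed rule on size and level, were regulators of the AP-1 family. JUN, an AP-1 subunit on chromosome 1 (58780788 to 58784327, - strand), was at 6.51, 5.76 and 6.05 CPM with UNC0642, and at 23.4, 23.5 and 28.6 CPM with A366. The DMSO libraries (8.58, 10.3 and 8.17 CPM) lay between, and the difference between the compounds was 2.04 (SE 0.12, adjusted p = 1.81e-06). JDP2, a dimerization partner that represses AP-1 sites, differed by 2.16 (SE 0.14, adjusted p = 3.6e-06), from 4.79, 6.03 and 4.63 CPM to 23.1, 20.3 and 25.7 CPM. ATF3 and CHAC1 belong to the same 10 rises.

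Other rises were of genes at or near the DMSO level with UNC0642. CYP19A1, the aromatase that makes oestrogens (chromosome 15, 51208057 to 51338610, - strand), was at 2.72, 1.7 and 1.32 CPM with UNC0642 and at 15.4, 15 and 13 CPM with A366, a 7.55-fold difference (log2 2.92, SE 0.23, adjusted p = 1.14e-05). Its DMSO levels of 2.21, 1.94 and 1.44 CPM overlapped those with UNC0642. BTK, the tyrosine kinase of B cell receptor signalling, was at 1.43, 2.4 and 1.94 CPM with UNC0642 and at 11.9, 10.8 and 10.2 CPM with A366 (log2 2.51, adjusted p = 8.11e-06). WIPF3, of the family that binds the actin regulator WASP, rose from 1.12, 1.04 and 0.854 CPM to 5.62, 6.29 and 5.85 CPM (log2 2.55, adjusted p = 1.11e-05). The long noncoding RNA LINC00520 was at 1.07, 2.52 and 1.11 CPM with UNC0642 and at 9.24, 8.71 and 10.9 CPM with A366 (log2 2.61, adjusted p = 0.000258).

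For UQCRBP1 and TIAF1 the counting is uncertain. UQCRBP1 is a processed pseudogene on chromosome X (56737242 to 56737577, - strand) of the respiratory gene UQCRB, and TIAF1 lies inside MYO18A on the same strand of chromosome 17 (29073521 to 29078857). Their A366 values were scattered, at 19, 5.2 and 31.1 CPM for UQCRBP1 and at 9.22, 3.41 and 15.4 CPM for TIAF1, with the lowest value in the library labelled Mel92.1 A366 replicate 2 in each. The log2 differences were 3.40 (SE 0.84, adjusted p = 0.00691) for UQCRBP1 and 2.32 (SE 0.56, adjusted p = 0.00618) for TIAF1. UQCRBP1 lost its call in the Wald test of DESeq2 (3.37, adjusted p = 0.0616).

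The largest falls were mostly of genes with long transcripts, since 7 of the 10 had a longest transcript above 7600 bases, the bound of the longest 10% of genes. KIAA0754, another of them, is a synonym of MACF1 in RefSeq, and no length of its own was available. LRP2, the endocytic receptor megalin (chromosome 2, 169127109 to 169362685, - strand), with a longest transcript of 15808 bases, was at 11.7, 13.9 and 14.5 CPM with UNC0642 and at 3.1, 3.56 and 2.2 CPM with A366. Its log2 difference was −2.18 (SE 0.16, adjusted p = 6.68e-06) and −1.85 with the offset, and its DMSO values of 11.5, 12.3 and 11.1 CPM did not overlap the A366 values. TET1, a dioxygenase that oxidizes methylated cytosine, was at 17.9, 17.7 and 19.6 CPM with UNC0642 and at 5.86, 9.21 and 4.35 CPM with A366 (log2 −1.5, SE 0.21, adjusted p = 0.000352), and at −1.07 with the offset. The others were ZBED6 (−2.30), KIAA0754 (−2.18), CCDC144B (−1.95), CRYBG3 (−1.62), PWAR5 (−1.59), DDI2 (−1.53) and TMED8 (−1.53). In each of these 7 genes, the library labelled Mel92.1 A366 replicate 2 had the highest of the A366 values. ZBED6, for instance, was at 22.1, 22.1 and 24.5 CPM with UNC0642 and at 2.64, 10.2 and 1.16 CPM with A366. ZBED6 lies inside ZC3H11A and PWAR5 overlaps SNHG14, so that their counts are uncertain.

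GAGE12D, of a cancer-testis family of near-identical copies, was highest with UNC0642, at 2.07, 9.16 and 4.37 CPM. With A366 it was at 0.831, 0 and 0.37 CPM, and with DMSO at 0, 0.509 and 0.26 CPM. The difference between the compounds was −3.65 (SE 0.87, adjusted p = 0.00555), and without the libraries labelled Mel92.1 it did not pass (−2.65, adjusted p = 0.0524). Reads shared among the GAGE copies make this level uncertain.

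A small set of genes was moved in opposite directions from DMSO by the compounds. Besides CHAC1 and ASNS, the rule named S100B and CYR61 (CCN1). S100B, a calcium-binding protein of the melanocyte and glial lineages, was at 35.3, 34.5 and 34.5 CPM with UNC0642, at 64.1, 69.4 and 60.9 CPM with DMSO and at 120, 98.5 and 126 CPM with A366. None of the 3 groups overlapped, and the difference between the compounds was 1.72 (SE 0.093, adjusted p = 8e-07), from −0.90 with UNC0642 (adjusted p = 0.00206) and 0.83 with A366 (adjusted p = 0.000161). CYR61, a matricellular target of YAP, was at 8.55, 9.48 and 7.89 CPM, then 12.8, 15.8 and 16.6 CPM, then 25.4, 25.2 and 26.9 CPM in the same order, a difference of 1.58 between the compounds (adjusted p = 6.04e-06). Its relative CTGF (CCN2) differed by 1.19 and was below DMSO with UNC0642 (−0.63, adjusted p = 0.0307) and above it with A366 (0.56, adjusted p = 0.00123). Of 17 YAP and TEAD targets tested, 4 rose and 2 fell, together a smaller share than the 43.1% of all genes that passed.

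DCT, which makes an intermediate of melanin, moved the other way. It was at 537, 571 and 546 CPM with UNC0642, at 362, 360 and 357 CPM with DMSO and at 292, 340 and 238 CPM with A366, again with no overlap. The difference between the compounds was −0.93 (SE 0.10, adjusted p = 9.67e-05), and −0.60 with the offset.

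Other genes separated UNC0642 from both DMSO and A366. HTR2B, a serotonin receptor used as a marker in uveal melanoma, was at 15.6, 13.7 and 16 CPM with UNC0642, at 24.6, 22.6 and 24.2 CPM with DMSO and at 26.1, 26.6 and 26.1 CPM with A366. The difference between the compounds was 0.80 (adjusted p = 7.4e-05), and only UNC0642 passed against DMSO (−0.66, adjusted p = 0.00672, against 0.14 with A366, adjusted p = 0.163). MGP, an inhibitor of calcification, was also lowest with UNC0642, with a difference of 0.63 (adjusted p = 0.000438). The read-through transcript ABHD14A-ACY1 (chromosome 3, 51974706 to 51989183, + strand) was at 0 in all 3 UNC0642 libraries, at 5.69, 4.33 and 5.63 CPM with DMSO and at 4.99, 1.16 and 10.8 CPM with A366. Taking 3 counts per library as the floor, it was at least 77.4-fold higher with A366. It shares its exons with ABHD14A and ACY1, and how the counting split the reads among them is not known.

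In the 4 genes that the rule named as raised over DMSO by both compounds, A366 went further. DENND2D, an exchange factor for Rab proteins, was at 1.04, 0.968 and 1.4 CPM with DMSO, at 2.24, 2.47 and 2.77 CPM with UNC0642 and at 9.33, 9.93 and 8.95 CPM with A366. The step between the compounds was 1.92 (SE 0.17, adjusted p = 2.29e-05). LHFPL3-AS1, an antisense RNA, rose from 15.7, 14 and 15.3 CPM to 29.5, 27.9 and 29.4 CPM and to 45.4, 51.3 and 44.4 CPM, with 0.70 between the compounds (adjusted p = 0.000129). LINC00504 (0.74) and the inflammatory caspase CASP1 (0.93) had the same order of groups. CASP1 lost its call without the libraries labelled Mel92.1 (0.77, adjusted p = 0.0538).

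The genes of the target enzymes moved little. EHMT2 was at 101, 101 and 109 CPM with UNC0642, at 105, 107 and 111 CPM with DMSO and at 124, 127 and 127 CPM with A366, a log2 difference of 0.28 between the compounds (SE 0.061, adjusted p = 0.00338). With the offset it was 0.091 (adjusted p = 0.263). EHMT1 was at 50.4, 43.6 and 45.7 CPM with UNC0642 and at 38.5, 42.9 and 38.7 CPM with A366, a difference of −0.22 (adjusted p = 0.0373) that was −0.10 with the offset. The groups of EHMT1 were separated by less than 1 CPM, and the call was lost when any of several libraries was left out, among them UNC0642 replicate 1 (−0.15). The compounds act on the enzyme, so these levels do not check that it was inhibited. TGFB1, an immunosuppressive cytokine that the study is concerned with, was at 42.8, 38.6 and 46.1 CPM and at 48.7, 47.4 and 57.6 CPM, a difference of 0.27 (adjusted p = 0.0341). It was −0.08 with the offset, and 0.19 without the libraries labelled Mel92.1 (adjusted p = 0.199).

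Of 8 genes that the study lists as raised by both inhibitors, 5 were higher with A366 than with UNC0642 and 0 lower (median 0.60), with 4 and 0 after the offset and 3 and 0 without the libraries labelled Mel92.1. The study chose them on these libraries, so they are not independent evidence of a direction. BANCR, a noncoding RNA first described in melanoma, was at 8.42, 10.7 and 7.62 CPM with DMSO, at 14.7, 15.5 and 13.2 CPM with UNC0642 and at 34.2, 27.2 and 32.3 CPM with A366, a step of 1.11 between the compounds (adjusted p = 0.000145). NOX5, an NADPH oxidase, stepped by 0.46 (adjusted p = 0.00431) and LINC00426 by 1.06 (adjusted p = 0.00349). AZGP1, a secreted glycoprotein, was at 7.05, 6.83 and 6.42 CPM with UNC0642 and at 9.37, 8.38 and 10.7 CPM with A366, a step of 0.49 (adjusted p = 0.0109). That of AZGP1 was 0.23 with the offset and 0.46 without the libraries labelled Mel92.1 (adjusted p = 0.0826), and neither passed. SLAMF7 (0.92, adjusted p = 0.0328) lost its call when any 1 of several libraries was left out, for example UNC0642 replicate 1 (0.65), and without the libraries labelled Mel92.1 (0.98, adjusted p = 0.154). The 3 that did not pass were KRT23 (0.71, 95% interval 0.091 to 1.32), BST2 (0.27, 95% interval −0.28 to 0.81) and SERPINA1 (−0.12, 95% interval −0.56 to 0.32).

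Genes of cell division were lower with A366. Of 30 mitosis genes 24 were lower with A366 and 1 higher (median −0.43), and with the offset 26 were lower and 0 higher (median −0.29). The median longest transcript of that list had 3388 bases and a GC content of 42.6%, against 3570 bases and 48.5% over all genes tested. ASPM, a spindle-pole protein, was at 348, 327 and 367 CPM with UNC0642 and at 144, 198 and 116 CPM with A366, a log2 difference of −1.19 (adjusted p = 0.000181) and of −0.63 with the offset. MKI67, the proliferation marker Ki-67, differed by −1.01 and TOP2A, a topoisomerase of dividing cells, by −0.62. CENPA, the centromeric histone and the 1 that rose (0.20), was at −0.027 with the offset. Of 30 DNA replication genes 15 were lower and 0 higher (median −0.19), and with the offset 23 were lower and 0 higher. MCM10, which helps to fire origins, differed by −0.75, and POLE, the leading-strand polymerase, by −0.68.

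Ribosomal protein and respiratory chain genes were higher with A366, and the median longest transcripts of these lists had 1826 and 1439 bases. Of 79 cytosolic ribosomal protein genes 69 rose and 0 fell (median 0.38), and with the offset 49 rose and 1 fell (median 0.24). RPS29, of the small subunit, was at 148, 161 and 130 CPM with UNC0642 and at 318, 275 and 247 CPM with A366 (log2 0.94, adjusted p = 0.000121). Of 77 nuclear genes for respiratory chain subunits 47 rose and 1 fell (median 0.33). The offset left 29 up and 5 down (median 0.17), and without A366 replicate 1 the number called was 31. NDUFB2, of complex I, differed by 0.82 (adjusted p = 0.000594), from 60.9, 65.2 and 60.4 CPM to 118, 87.1 and 125 CPM. Of 30 lysosome genes 18 rose and 2 fell (median 0.30), with 10 and 1 after the offset.

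Glycolysis and hypoxia genes were lower with A366, and the offset widened the difference. Of 29 tested, 16 fell and 1 rose (median −0.21), and with the offset 22 fell and 1 rose (median −0.36). PDK1, a pyruvate dehydrogenase kinase, was at 91.7, 97.9 and 99 CPM with UNC0642 and at 37, 42 and 34.1 CPM with A366. Its log2 difference was −1.35 (SE 0.083, edgeR adjusted p = 1.91e-06) and −0.82 with the offset. LDHA, lactate dehydrogenase, was at 2140, 2030 and 2120 CPM with UNC0642 and at 1350, 1280 and 1360 CPM with A366, a difference of −0.66 (SE 0.046, adjusted p = 5.08e-06). For LDHA the offset gave −0.62, and the DMSO libraries, at 1880, 1830 and 1860 CPM, lay between the compounds. The mitophagy receptor BNIP3 fell by 0.89 on the log2 scale. NDRG1, a stress-responsive gene, was the 1 that rose (0.32).

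Zinc finger genes with ZNF symbols were lower as a group. Of 434 tested, 184 fell and 36 rose (median −0.32). The offset left 101 lower and 13 higher (median −0.14), and without the libraries labelled Mel92.1 there were 138 lower and 22 higher. ZNF141 was at 8.12, 10.4 and 8.28 CPM with UNC0642 and at 2.7, 4.54 and 2.22 CPM with A366 (log2 −1.5, adjusted p = 0.000495). Many of these genes are neighbours of similar sequence, and how reads were split among them is not known. Of 14 genes of the G9a and GLP complex 6 fell and 2 rose (median −0.12), with 2 and 2 after the offset, and of 10 H3K9 demethylases 5 fell and 1 rose, with 3 and 1 after the offset. KDM3A, an H3K9 demethylase, differed by −0.74, and by −0.33 with the offset. CBX5, the heterochromatin protein HP1 alpha, passed at −0.47 and was at 0.017 with the offset. Without A366 replicate 1 the number called was 5 in the complex list and 3 among the demethylases.

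The abundant nuclear RNA MALAT1 was higher with A366, at 3680, 2000 and 4180 CPM against 884, 1090 and 1100 CPM with UNC0642 and 936, 1050 and 1010 CPM with DMSO. Its log2 difference was 1.68 (SE 0.20, adjusted p = 0.000169), and it was lowest in the library labelled Mel92.1 A366 replicate 2 among the A366 libraries. Its part, and that of the ribosomal RNA share, in the lists above was not tested. Of 33 replication-dependent histone genes tested 13 rose and 2 fell, and with the offset 5 rose and 2 fell. Without the libraries labelled Mel92.1, 5 rose and 0 fell. The number called dropped from 15 to between 6 and 8 when any of 6 libraries was left out, which were A366 replicate 1, the library labelled Mel92.1 A366 replicate 3, UNC0642 replicates 2 and 3 and DMSO replicates 1 and 3.

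**Figure D3:**
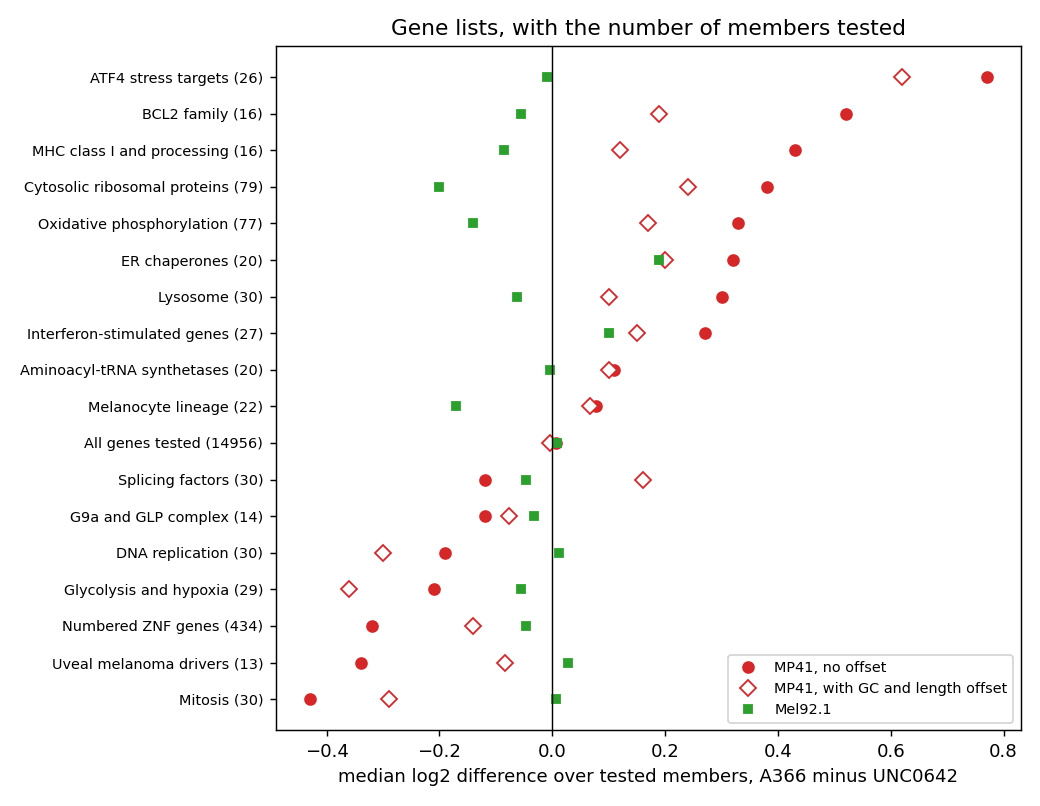
Median log2 difference, A366 minus UNC0642, of the members of each gene list in MP41 without an offset, in MP41 with the offset for GC content and transcript length, and in Mel92.1. ATF4 targets have the medians 0.77 and 0.62 in MP41 and −0.0099 in Mel92.1, and mitosis genes −0.43 and −0.29 in MP41.

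Genes of antigen presentation were higher with A366. Of 16 genes of MHC class I and its antigen processing 10 rose and 0 fell (median 0.43), and the offset left 7 up and 0 down (median 0.12). The class I gene HLA-B passed at 0.50 but stood at 0.10 with the offset and did not pass (edgeR adjusted p = 0.115). PSMB9, a subunit of the immunoproteasome, was at 4.5, 5.81 and 5.51 CPM with UNC0642 and at 9.07, 7.14 and 9.62 CPM with A366, a log2 difference of 0.71 (adjusted p = 0.00689) that was 0.66 with the offset. Of 27 interferon-stimulated genes 10 rose and 2 fell (median 0.27), with 4 and 1 after the offset and 6 and 2 without the libraries labelled Mel92.1. IFI6, a mitochondrial antiviral protein, rose by 1.12 (adjusted p = 0.000279), and IFIT1, which binds viral RNA, was at −0.43 and at −0.18 with the offset.

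Ligands of natural killer cells parted little. Of 11 tested, 1 rose and 1 fell, together a smaller share than the 43.1% of all genes that passed. NCR3LG1, the ligand B7-H6 of the receptor NKp30, was at 32.3, 30.5 and 30.9 CPM with UNC0642 and at 9.88, 18.1 and 5.69 CPM with A366 (log2 −1.48, SE 0.27, adjusted p = 0.00153). MICA, a ligand of NKG2D, was at 12, 12.4 and 13.8 CPM and at 17.1, 14.9 and 17.1 CPM, a difference of 0.37 (adjusted p = 0.0102) and of 0.076 with the offset. Without A366 replicate 1 the difference in MICA was 0.34 and did not pass. Of 15 chemokine genes tested 6 rose and 2 fell. CCL18 was at 0.583, 0.454 and 0.285 CPM with UNC0642 and at 2.25, 2.01 and 3.26 CPM with A366 (log2 2.50, adjusted p = 0.000922), and CXCL8, a neutrophil attractant, rose by 0.49 (adjusted p = 0.00059). Without A366 replicate 1 or UNC0642 replicate 1, 5 chemokine genes were called, and without both libraries labelled Mel92.1 4 rose and 1 fell.

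Melanocyte lineage genes marked all 9 libraries, and 7 of 22 rose and 5 fell (median 0.077). PMEL, the amyloid of pigment granules, was at 5310, 5220 and 5150 CPM with UNC0642 and at 6570, 5890 and 7180 CPM with A366, a log2 difference of 0.32 (adjusted p = 0.00137). MITF, the master factor of the lineage, differed by −0.46 (adjusted p = 0.000794) and by −0.18 with the offset. TYR, tyrosinase, differed by 0.085 (95% interval −0.059 to 0.23, adjusted p = 0.321). Of 13 uveal melanoma driver genes 8 fell and 2 rose (median −0.34), and the offset left 4 and 1. The splicing factor SF3B1 differed by −0.58, and by −0.21 with the offset. The G protein genes GNAQ (−0.52) and GNA11 (0.27) passed, but were at −0.069 and 0.057 with the offset. Of 18 feedback genes of the MAPK pathway 6 rose and 2 fell, together close to the 43.1% of all genes that passed. DUSP6, the ERK phosphatase, was at 74.7, 73.2 and 74.6 CPM with UNC0642 and at 125, 129 and 123 CPM with A366 (log2 0.76, SE 0.062, adjusted p = 1.35e-05). Of 28 genes of the TGF-beta pathway 9 rose and 5 fell, also near the share over all genes. The target ID3 rose by 0.91, and the receptor TGFBR1 fell by 0.78 on the log2 scale.

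Some transcripts typical of liver and epithelium were present at low levels with UNC0642 and DMSO and lower with A366, while others of the same lists were higher. Of 15 liver plasma protein genes tested, 8 were lower with A366 and 4 higher (median −1.48), with 7 and 3 after the offset and 6 and 3 without the libraries labelled Mel92.1. Their summed level was between 55.1 and 70.6 CPM with UNC0642, between 39.6 and 48.1 CPM with DMSO and between 48.1 and 54.6 CPM with A366. ALB, serum albumin, was at 2.36, 7.37 and 3.34 CPM with UNC0642, at 2.87, 3.03 and 2.39 CPM with DMSO and at 0.314, 0.306 and 0.278 CPM with A366 (log2 −3.85, SE 0.41, adjusted p = 9.81e-05). APOA2, an apolipoprotein, was at 2.04, 4.06 and 2.56 CPM with UNC0642, and all A366 libraries were at the floor of 3 counts or under, so that it was at least 45.5-fold lower. AHSG, fetuin A, differed by −2.91 (adjusted p = 0.0019). TTR and VTN, which encode transthyretin and vitronectin, went the other way, by 1.33 and 1.43. TF, transferrin, was at −0.68 and at −0.20 with the offset. Of 7 epithelial markers tested 3 were lower and 1 higher, with 1 and 1 without the libraries labelled Mel92.1. Their summed level was between 36.2 and 39.4 CPM with UNC0642 and between 44.5 and 48 CPM with A366. ESRP1, the member of highest level, was the 1 that was higher with A366. KRT8, an epithelial keratin, was at 0.972, 1.25 and 1.22 CPM with UNC0642 and at least 18.1-fold lower with A366. Of 4 natural killer and T cell markers tested 0 passed, and of 7 fibroblast markers 2 fell. These levels are low, and their part in the other differences was not tested.

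**Figure D4:**
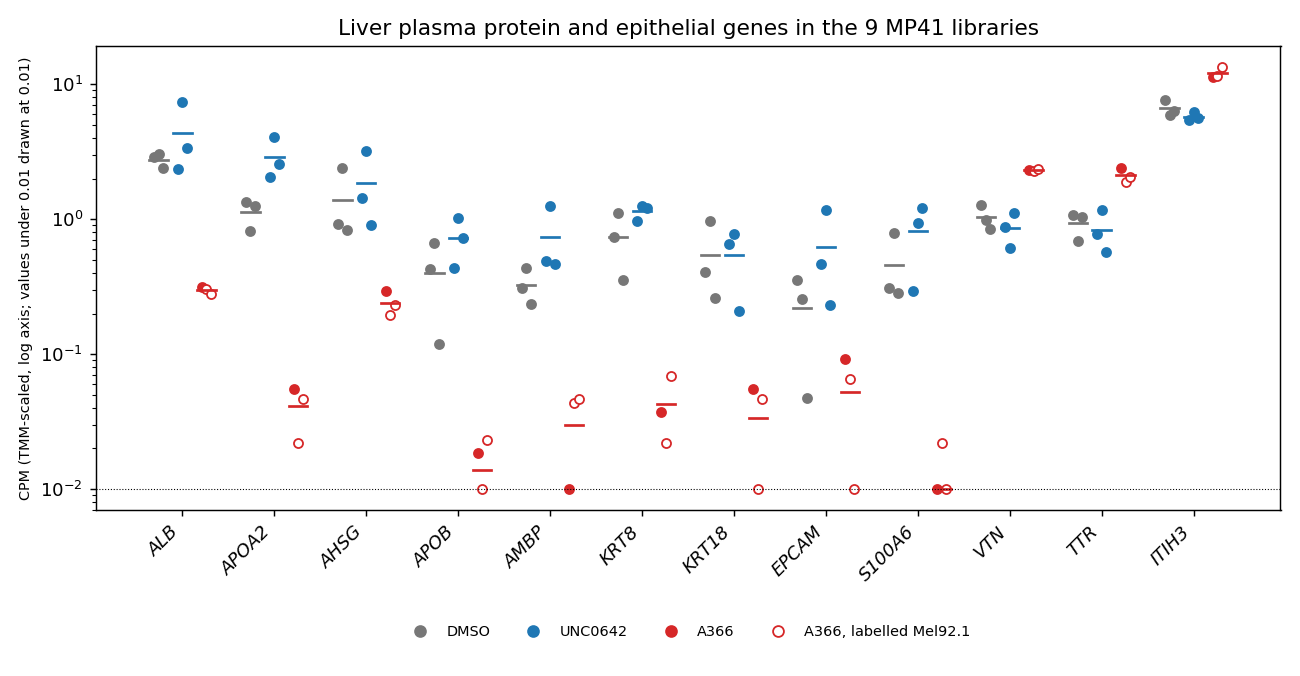
Level (CPM, log axis) of liver plasma protein and epithelial genes in each of the 9 MP41 libraries, with 1 point per library, values under the floor drawn at the floor, and open markers for the A366 libraries labelled Mel92.1. ALB lies between 2.36 and 7.37 CPM with UNC0642 and between 0.278 and 0.314 CPM with A366.

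A few transcripts were at or near 0 CPM with 1 of the compounds, some of them at low levels with the other. The antisense RNA CERS6-AS1 (chromosome 2, 168771953 to 168786961, - strand) was at 0 in all DMSO and UNC0642 libraries of MP41 and at 13.6, 8.91 and 12.8 CPM with A366, at least 162-fold higher. It overlaps CERS6 and NOSTRIN on the other strand. The library protocol marks strand, but whether the counting used it is not given in the sources used here, so reads of the overlapping genes cannot be told apart. In Mel92.1 the same RNA was between 4.03 and 25.2 CPM in all 9 libraries. RUNDC3A, a gene of neurons, was at 0, 0.0454 and 0.129 CPM with UNC0642 and at 1.46, 1.18 and 1.83 CPM with A366. S100A6 (chromosome 1, 153534599 to 153536244, - strand), a calcium-binding protein, was at 0.292, 0.93 and 1.22 CPM with UNC0642 and at least 12.8-fold lower with A366. RUNDC3A overlaps RUNDC3A-AS1 and S100A6 overlaps BX470102.1 on the other strand, so the same limit on reads of overlapping genes holds.

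The same pair of compounds was compared in Mel92.1. There 147 of 15799 genes passed in the fit of all 18 libraries (0.93%), 82 higher and 65 lower with A366. In that same fit 4954 genes passed between the compounds in MP41, 2723 higher and 2231 lower. The difference between the lines itself passed for 2850 genes (18%), 1724 higher in MP41 (10.9%) and 1126 lower (7.13%). Across the 14956 genes in both fits the log2 differences of the lines had a Spearman's rho of −0.062, and 2739 of the 6450 genes called in MP41 had the same sign in Mel92.1 (42.5%). Leaving out single libraries moved the number of genes that differed between the lines from 2850 to 1052 without the library labelled MP41 A366 replicate 2, to 1068 without that labelled Mel92.1 A366 replicate 3 and to 1249 without MP41 A366 replicate 1. It was 1309 without Mel92.1 A366 replicate 1 and 1593 without MP41 UNC0642 replicate 3. Without all 4 exchanged libraries, which leaves 1 A366 library in each line, it was 221. Mel92.1 UNC0642 replicate 1 stood apart, with 32.8% of its counts on ribosomal RNA genes and 13352 genes with a count. Without this library the number that differed between the lines was 2619. The 147 genes, the rho, the shared signs and the list medians of Mel92.1 are given only with it. Its part in the small number of calls in Mel92.1 was not tested.

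CHAC1 showed the gap between the lines. In Mel92.1 its DMSO mean of 25.1 CPM was above both inhibitors, which stood at 6.29 ± 2.90 CPM with UNC0642 and 6.47 ± 0.323 CPM with A366 (SD, n = 3 each). The difference between the compounds there was −0.021 (adjusted p = 0.987), and the difference between the lines was 3.10 (SE 0.31, adjusted p = 3.22e-05). Among ATF4 targets, 28 were tested for the difference between the lines, and 21 were higher in MP41 and 0 lower. In Mel92.1 itself 0 of the 28 rose and 1 fell with A366 against UNC0642 (median −0.0099). Examples are ASNS (1.49 between the lines, adjusted p = 5.74e-06), NUPR1 (2.05, adjusted p = 1.5e-05) and ATF3 (1.79, adjusted p = 0.0267). The call of ATF3 between the lines was lost when any of 8 libraries was left out, with values from 1.43 without Mel92.1 UNC0642 replicate 3 to 1.89.

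**Figure D5:**
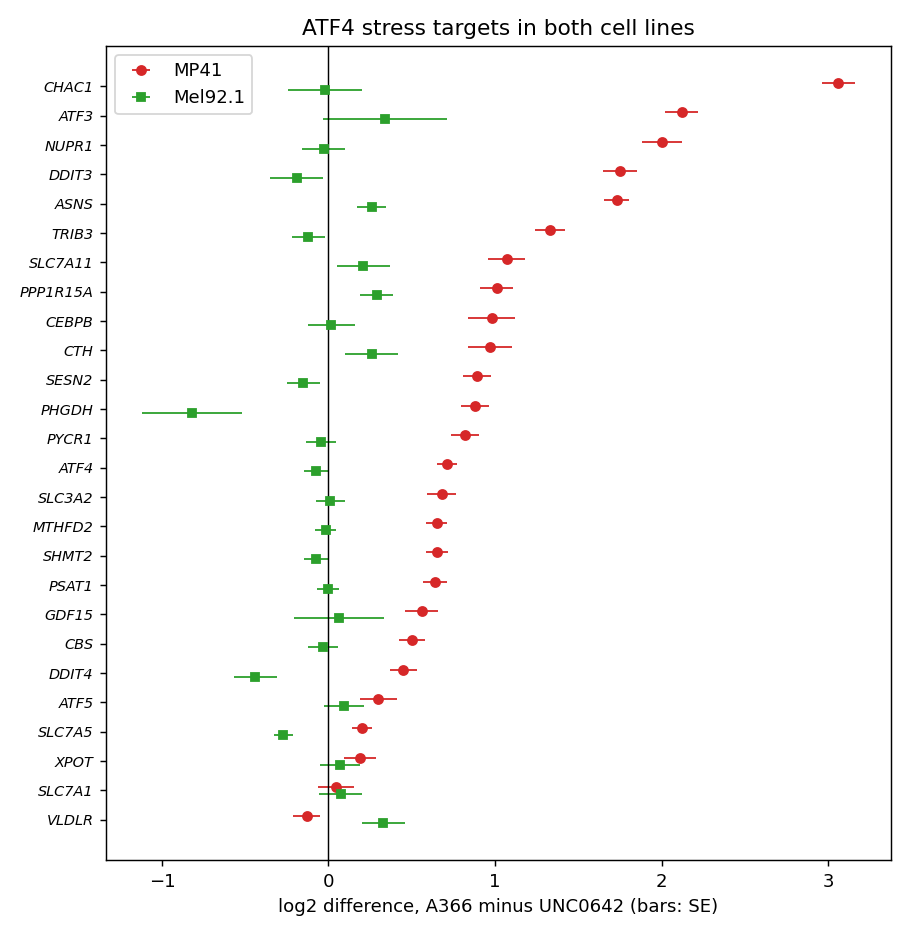
Log2 difference, A366 minus UNC0642, of each ATF4 target in MP41 and in Mel92.1, with bars for 1 SE. CHAC1 lies at 3.06 in MP41 and at −0.021 in Mel92.1.

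Other lists that differed between the lines were ribosomal proteins, with 69 genes higher in MP41 and 0 lower, respiratory chain subunits with 43 and 1, and mitosis genes with 0 and 17. The medians of ribosomal proteins and respiratory chain subunits in Mel92.1 were −0.20 and −0.14. The chaperones of the endoplasmic reticulum had a median of 0.19 in Mel92.1, and 6 were higher in MP41 and 1 lower. HERPUD1 rose in Mel92.1 too, by 0.37 (adjusted p = 0.0153), and the difference between the lines was 0.93 (adjusted p = 6.05e-05). BANCR rose in Mel92.1 by 1.78 (adjusted p = 0.000139), from 2.73, 3.48 and 2.23 CPM to 10.2, 8.83 and 9.88 CPM, and the difference between the lines in BANCR did not pass (−0.65, adjusted p = 0.0939). HTR2B was higher with A366 than with UNC0642 by 1.30 in Mel92.1 (adjusted p = 0.000919) and MKI67 lower by 1.51 (adjusted p = 0.000159), on the log2 scale. Neither differed between the lines past the threshold (adjusted p = 0.185 and 0.124). The Mel92.1 means of MKI67 were 13.9 CPM with DMSO, 77.5 CPM with UNC0642 and 27.3 CPM with A366, so A366 was not below DMSO there. Those of HTR2B were 29.3, 11.9 and 30 CPM in the same order.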

How the data were processed

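The authors deposited a table of expected counts for 26475 human gene symbols in 18 libraries, not normalized for library size. The submitters' processing notes name Bowtie2 2.1.0, RSEM 1.2.15 and hg38. The study's methods name TopHat, Cufflinks, FPKM and mm10 instead, and the deposited values are RSEM estimates. The annotation and the strand setting of the counting are not given in the sources used here. The protocol names oligo-dT selection and a strand-marking kit, the series text ribosomal RNA depletion. All columns were used.

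Expected counts were rounded, filtered with filterByExpr, scaled with TMM factors and fitted in edgeR 4.0.16 (R 4.3.3) with glmQLFit and glmQLFTest over the 9 MP41 libraries, without a block, and p-values were adjusted by Benjamini-Hochberg over the genes tested, with a threshold of 0.05. The difference between the lines was an interaction over all 18 libraries. Libraries were grouped by the placement of the study's data set, and the grouping as labelled is an alternative. Members of the comparison, gene lists and tests were chosen with earlier results of these data known. The fit was tested on simulated counts.

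CPM values are scaled by TMM factors and compared only within a gene. Total counts in MP41 ran from 37531522 to 54800817. Replicates of a group differed by more than sampling noise (chi-square per gene 7.47 to 76.7), so none was counted as a repeat. A fold against a group in which every library holds 3 counts or fewer is a bound against 3 counts per library, and floors cover counting error only. GC content and length of the longest transcript came from GENCODE release 29, where 23899 symbols matched by name and 703 by a synonym. The motif search used windows of 300 bases.

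Genes were named by a rule: EHMT2, EHMT1, TGFB1 and the 8 genes the study lists; the 10 largest rises and falls that passed with at least 5 CPM in a group, no overlap and 1 direction in every fit with a library left out, leaving out read-through and antisense symbols; up to 3 members of each list by size of change and its member of highest level; up to 4 genes each with opposite changes from DMSO, a change with UNC0642 alone and changes the same way; and up to 5 per direction between the lines. The text names only some of the genes of this rule, 1 gene of it is not reported here, and list members outside it were chosen after their values were seen. The alternatives were RLE factors, library size, ribosomal RNA removed, DESeq2 1.42.0, limma 3.58.1 on log2(CPM + 1), voom with sample weights, other filters, thinned counts, other sets of libraries, fold thresholds, a replicate block, offsets for GC content and length, and each library left out.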

Additional observations from a re-analysis of the deposited data

Results flagged for a closer look

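The difference between A366 and UNC0642 was itself different in MP41 and in Mel92.1 for 2850 genes in edgeR's interaction test. Values here are the log2 difference in MP41 minus that in Mel92.1. Among ATF4 targets it was 3.10 for CHAC1, 1.79 for ATF3, 1.97 for DDIT3, 2.05 for NUPR1, 1.49 for ASNS and 1.47 for TRIB3. In each of these the change in Mel92.1 alone did not pass.

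It was 2.04 for JUN and 2.19 for JDP2, whose Mel92.1 differences were 0.022 and −0.013. CYP19A1 had 2.17, BTK 1.89 and WIPF3 3.10. BTK and CYP19A1 were higher with A366 in Mel92.1 as well, by 0.63 and 0.77 without passing, and WIPF3 was at −0.53 there. PDK1 had −1.09. LRP2 had −3.43, with Mel92.1 levels of 0, 0.819 and 1.29 CPM with UNC0642 and 1.44, 2.44 and 2.07 CPM with A366.

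For S100B (2.08) and TF (−5.88) the Mel92.1 term rests on levels of at most 0.819 and 0.131 CPM, and S100B lost its call without Mel92.1 UNC0642 replicate 2 (1.18). For CERS6-AS1 (12.14) and S100A6 (−6.52) the MP41 term sets a group at or near 0 against counts, so the fitted size depends on the prior count and is no bound. RUNDC3A had 4.50. Its Mel92.1 levels were 8.44, 11.8 and 10.5 CPM with UNC0642 and 11.4, 11.2 and 11.8 CPM with A366.

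Leaving out the 4 libraries whose labels name the other line leaves 1 A366 library in each line, assumed to vary like the other groups. In that fit the difference between the lines in BTK (1.93), CYP19A1 (2.32), WIPF3 (2.84), LRP2 (−2.91), PDK1 (−1.11), RUNDC3A (4.48), S100B (2.54), TF (−4.85) and ATF3 (1.67) kept its sign and did not pass.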

How the results depend on the processing

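Between the compounds in MP41, 1932 genes passed with a fold change of at least 1.5 as well, and 113 in a test against that fold (glmTreat). Leaving out 1 library gave 4456 genes (without A366 replicate 1) to 7721 (without the library labelled Mel92.1 A366 replicate 2). Library size scaling split 6278 calls into 2385 higher and 3893 lower, and the grouping as labelled split 4670 into 2805 and 1865. Between the lines, 1646 genes passed with the fold, 39 in glmTreat, 6782 with voom, 7863 as labelled, 221 without the exchanged libraries (1 A366 library per line, assumed to vary like the other groups), and 1052 to 4254 with 1 library left out. Library size scaling made 268 of those calls higher and 2946 lower, and scaling without ribosomal RNA 1241 higher and 1531 lower. The cause was not tested. Same-numbered libraries had correlations of −0.15 to 0.16, and not every library correlated best with its own number. Of same-numbered pairs, only DMSO and UNC0642 replicate 2 (0.16) exceeded 0.1, the set limit for pairing. DMSO replicate 2 and the library labelled Mel92.1 A366 replicate 3, of different number, reached 0.13. With the replicate block 5931 genes passed in MP41 and 1473 between the lines, and with an offset for GC content added 4993 and 1238.

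Some genes changed sign. TGFB1 was at −0.01 with the GC offset, with and without the block, and with the length offset TGFB1 was at −0.08, VLDLR at 0.29, CBX5 at 0.02 and CENPA at −0.03. Grouped as labelled, which mixes the lines, MP41 gave EHMT1 0.70, TGFB1 −0.07, AZGP1 −0.05, NOX5 −0.53, SLC7A11 −0.0014, PHGDH −0.66, GDF15 −1.02, DDIT4 −0.87, WARS −0.24, CANX 0.45, MGP −0.89, CASP1 −0.78, LINC00504 −0.80, LHFPL3-AS1 −0.83, S100A6 4.42, NDRG1 −0.40, CXCL8 −1.07, MLANA −0.42, CBX5 0.38, HRK −0.42, TTR −0.0018, ITIH3 −0.43, TYRP1 0.52 and GNAQ 0.01. Between the lines it gave CHAC1 −0.97, ATF3 −0.88, DDIT3 −0.97, NUPR1 −0.93, ASNS −1.59, S100B −7.09 and S100A6 5.81.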

Other observations

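Several gene groups outside the stress response had members that moved both ways. The list counts of this section stand beside 21.1% of all genes higher with A366 and 22% lower. Of 16 cytosolic heat shock genes 4 rose and 3 fell with A366 relative to UNC0642 (median log2 difference 0.028). HSPA1B, an inducible HSP70, was at 44, 38.4 and 39.5 CPM with UNC0642 and at 67.5, 63.1 and 74.3 CPM with A366, a difference of 0.75 (edgeR adjusted p = 9.62e-05), and UNC0642 lay below DMSO (−0.51, adjusted p = 0.0265). HSP90AA1, the most abundant member, differed by −0.036 (adjusted p = 0.581). Of 24 cholesterol synthesis genes 7 rose and 5 fell, and of 19 NRF2 targets 8 rose and 6 fell, with 3 up and 3 down in each list after the offset for GC content and length. ME1, which makes NADPH, was at 46.5, 57.1 and 53.7 CPM with UNC0642 and at 29.7, 32.8 and 29.8 CPM with A366 (−0.77, adjusted p = 0.000145).

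Matrix genes were split. Of 32 collagen chains 6 fell and 1 rose, and of 30 integrin and laminin chains 9 fell and 3 rose. COL9A3, a chain of collagen IX, was the collagen that rose, from 96, 112 and 92.1 CPM to 179, 162 and 214 CPM (0.88, adjusted p = 0.000145). LAMB3, a laminin chain, rose from 13, 15.2 and 14.3 CPM to 26.8, 26.7 and 27.1 CPM (0.92, adjusted p = 5.11e-05), while the integrin ITGA2 differed by −0.87 and ITGAV by −0.83. Of 32 clustered protocadherins 1 rose and 2 fell, with 1 and 0 without the A366 libraries labelled Mel92.1. Of 30 splicing factors 2 rose and 13 fell, and with the offset 14 rose and 7 fell, so that no direction of this list held under both fits. SRSF5 (−0.54, and −0.37 with the offset) and the kinase CLK1 (−0.52, and −0.26) were lower in both.

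Among noncoding RNAs, 25 of 169 long intergenic RNAs tested rose and 8 fell, and 44 of 396 antisense RNAs rose and 15 fell. In both lists these shares were below those over all genes (21.1% and 22%). Without A366 replicate 1, the number called was 19 and 36 in these lists. Without the A366 libraries labelled Mel92.1, 13 long intergenic RNAs rose and 7 fell, and 22 antisense RNAs rose and 11 fell. After the offset, 29 antisense RNAs rose and 17 fell. Of 80 read-through transcripts 10 rose and 8 fell, of 12 nuclear-retained RNAs 7 rose and 2 fell, of 23 small nucleolar RNAs 0 rose and 1 fell, and of 9 small structured RNAs and 9 microRNA precursor genes 1 and 0 rose and 1 and 1 fell.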
